A study of Mus musculus with 6 samples.

Results

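The nuclear-encoded genes of the mitochondrial respiratory chain and ATP synthase were followed in cultured CD63+ cells of the adult mouse liver. The set holds every gene on the array whose symbol begins with Nduf, Uqcr, Cox4 to Cox8 or Atp5, the Sdh subunits, Cyc1, Cycs, Cox10, Cox11, Cox15 and Cox17, which gave 99 genes of 20659 named ones, and 134 probes of 39429. The rule uses symbols and no measured value, though it was written with earlier results of these data known. The DDC injury group comprised 3 arrays of CD63+ cells isolated after DDC-induced liver injury (DDC is a porphyrinogenic agent that damages bile ducts), and the no-injury group comprised 3 arrays of CD63+ cells from uninjured livers. CD63 is a tetraspanin of late endosomes. Cells of both groups had been cultured in the same basal medium with fetal bovine serum, HGF, EGF, insulin-transferrin-selenium, dexamethasone and nicotinamide, so that the values describe cultures. VEGF and bFGF had been added in cultures numbered P6, P7 and P9, which the sample titles do not name. Such numbers stand in the names of 2 no-injury files, so whether this addition lies within the no-injury group is not known. The design text speaks of 6 cell lines, and strain, sex, age and the number of animals behind them are not given in the sources used here.

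The respiratory chain passes electrons from NADH through complex I, and from succinate through complex II, to coenzyme Q, complex III, cytochrome c and complex IV, which reduces oxygen. Complexes I, III and IV pump protons across the inner mitochondrial membrane, and ATP synthase, complex V, uses the gradient to make ATP. A small part of the subunits is encoded in mitochondrial DNA and none of those genes was named on the array, so every value below belongs to a nuclear gene. Some subunits of complex IV exist as a common form and as forms known from heart and skeletal muscle, lung or testis, and hepatocytes are rich in mitochondria.

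Levels are log2 of the processed signal minus the log2 of the array's 75th percentile, and a difference is the DDC injury level less the no-injury level, with the standard error (SE) of limma's fit and p adjusted over all genes tested (Benjamini-Hochberg, threshold 0.05). Each of the arrays carried 43020 non-control spots, of which 65.03% to 74.78% were well above background and 0 saturated, and its 75th percentile was 1441 to 2271 intensity units. No-injury replicates 1 and 3 agreed within sampling noise on 178 bright probes with 10 spots each, their spread being 1.03 times the spot noise (chi-square test, p = 0.267), so their mean entered as 1 sample, and the fit compared 3 DDC injury samples with 2 no-injury samples. Over 243 repeated probes, dimmer ones among them, the chi-square test did separate these arrays (p = 1.05e-16). On the bright probes the other no-injury pairs spread 1.65 and 2.11 times the spot noise, and pairs of DDC injury arrays 4.72 to 18.2 times. The no-injury samples thus differed little beside the DDC injury arrays, and the p-values rest in part on this narrow spread. The 5 proliferation markers summed to 35.3 to 42.9 times the array's 75th percentile on the DDC injury arrays and to 11.4 to 11.7 times on the no-injury arrays, and 4 of 5 rose. The 8 hepatocyte markers summed to 11.8 to 18.8 in DDC injury and 29.9 to 34.2 in no injury, with 5 lower and Afp higher, and the 7 cholangiocyte markers to 51.1 to 56.3 in DDC injury and 64.3 to 66.0 in no injury, with 4 lower. These shifts moved with the groups in every comparison below, and their part in the results was not tested. In such bulk samples fewer cells of a type and less RNA per cell cannot be told apart.

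Most respiratory chain genes differed little between the groups. Of the 99 genes, 95 passed the filter for testing, 13 rose in DDC injury, 3 fell and 79 did not pass the threshold. Rises made up 13.7% of the tested members and falls 3.16%, while over all 15619 genes tested 17.7% rose and 15.8% fell, 33.4% together. The share that rose was therefore near the background, and the share that fell was below it. At an unadjusted p under 0.05 stood 28.4% of the members, against 45.2% of all genes. The difference was under 0.5 in size in 81.1% of the members, against 48.2% of all genes, and at least 1 in 5 members. The members' median difference was 0.14 and that of all genes -0.07, with 66 members above 0 and 29 below. Signals were strong, with 90 of the 99 well above background on all 6 arrays.

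**Figure D1:**
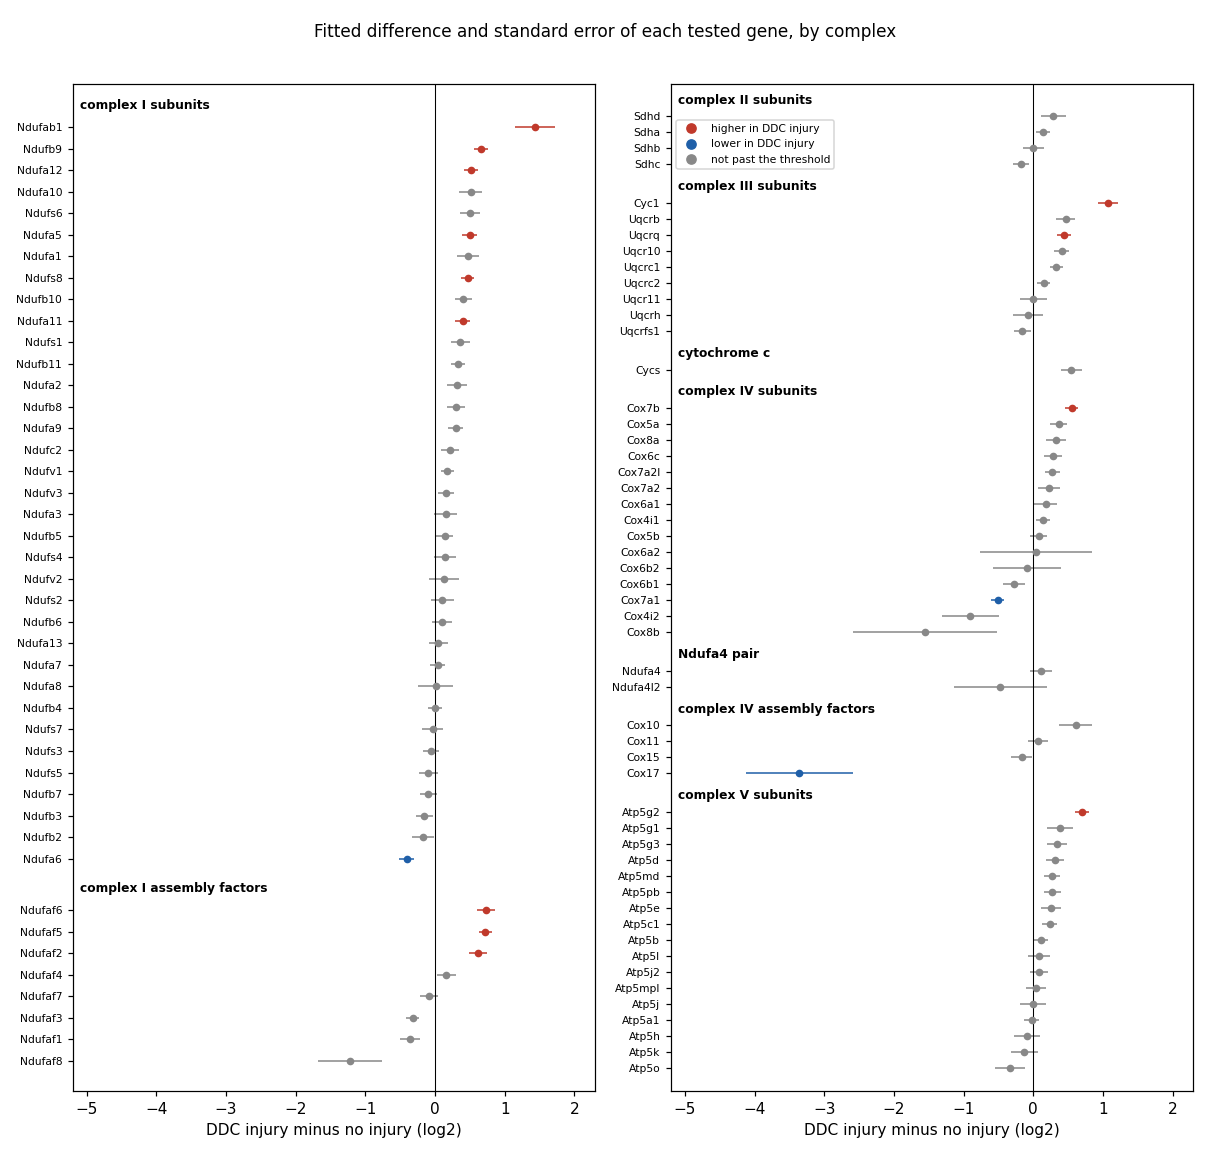
Difference between DDC injury and no injury for each tested member, on the log2 scale, arranged by complex, with bars for the standard error of the fit, rises in red and falls in blue. Most points lie between -0.5 and 0.5, the points of complex III lie mostly above 0, and Cox17 stands apart at -3.36.

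How far the whole set lay above 0 depended on the scaling. The members' median was 0.14 with 75th-percentile scaling, -0.01 after quantile normalization and 0.02 in the authors' deposited values, while the median of all genes was -0.07, 0.00 and -0.02 in the same order. Of the 92 tested members with a value on all arrays, 44 had every DDC injury array above every no-injury array and 11 had every one below. These are 47.8% and 12% of them, beside 31.5% and 31.5% of all genes. In the authors' values the counts were 26 above and 21 below, beside 30.5% and 31.1% of all genes, and 18 of the 95 tested members had the opposite sign there. Single calls moved too, and those not named next were lost under at least 1 combination of background correction and scaling. Ndufab1, Cyc1, Ndufa11, Ndufaf2, Ndufaf5 and Ndufaf6 rose, and Cox7a1 fell, under all 5 combinations of background correction and scaling, and 12 of the 16 calls held in the authors' values.

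**Figure D2:**
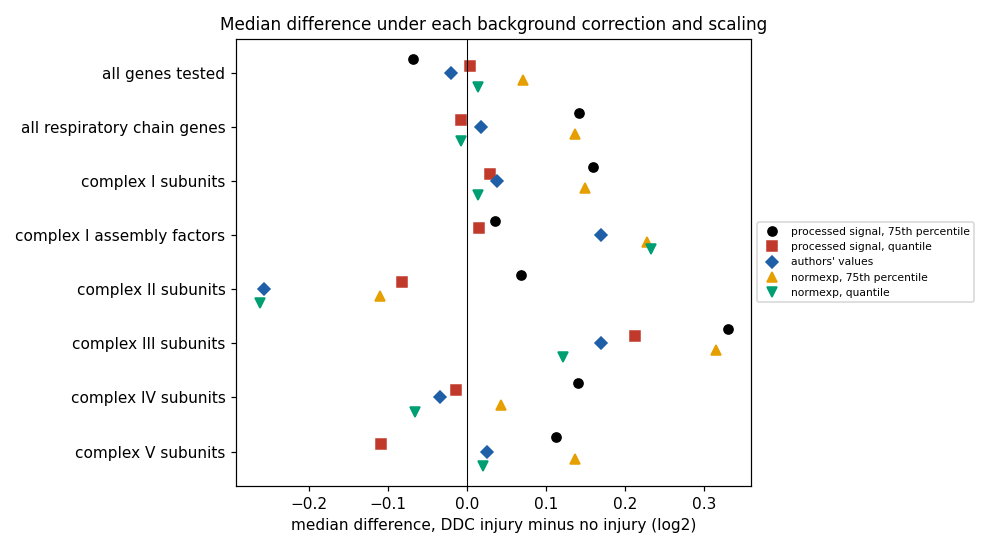
Median log2 difference (DDC injury minus no injury) of each complex and of all genes under the scalings tried. Complex III, complex I subunits and complex I assembly factors stay above 0 under each of them, while complexes II, IV and V are below 0 under at least 1.

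The arrays of the DDC injury group were spread more widely than those of no injury. The median SD of a member was 0.158 over the 3 DDC injury arrays and 0.0362 over the 2 no-injury samples. The second value is lowered by averaging, since 1 of these samples is the mean of 2 arrays. DDC injury replicate 2 was the highest of its group in 57 of the members, replicate 1 in 23 and replicate 3 in 12. The number of calls moved with the arrays kept, among the members and among all genes. Without DDC injury replicate 2, 20 members rose and 3 fell, beside 3692 and 3145 of the 15310 genes tested. Without DDC injury replicate 3, 6 members rose and 0 fell, beside 1728 and 1548 of 15124 genes. At an unadjusted p under 0.05 in limma, 4 members were lower there. Without no-injury replicate 2 a single no-injury sample remained, assumed to vary like the DDC injury arrays, and limma called 0 members in either direction, with 7 higher and 1 lower at an unadjusted p under 0.05. With all 6 arrays counted as separate samples, 25 members rose and 5 fell, beside 3849 and 3625 of 15627 genes.

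Complex I, which oxidises NADH, had 6 of 35 tested subunits higher and 1 lower, with a median difference of 0.16. The 7 subunits of its catalytic core, which carry the flavin and iron-sulphur clusters, had a median of 0.12 (-0.03 in the authors' values). The 28 tested accessory subunits had a median of 0.19 (0.05 in the authors' values). Ndufab1, the mitochondrial acyl carrier protein, which is a complex I subunit and also serves lipoic acid and fatty acid synthesis, had the greatest rise among the members. Its level was 1.09, 1.74 and 0.91 on the DDC injury arrays and -0.20, -0.18 and -0.21 on the no-injury arrays. The groups did not overlap, and DDC injury replicate 2 stood above the other two of its group. The difference was 1.44 ± 0.29 (SE), a 2.71-fold rise, with adjusted p = 0.0249 in limma.

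Other accessory subunits rose by less. Ndufb9 had levels of 4.45, 4.41 and 4.32 in DDC injury and 3.73, 3.75 and 3.71 in no injury, a difference of 0.66 ± 0.10 (adjusted p = 0.0126, limma). In the authors' values Ndufb9 differed by 0.36 and was not called. Ndufa12, at the matrix arm, had levels of 3.91, 3.95 and 3.86 in DDC injury and 3.48, 3.34 and 3.39 in no injury, a difference of 0.52 ± 0.10 (adjusted p = 0.0221). For both genes the groups stood apart. Ndufa5 differed by 0.50 ± 0.11 on the probe used, while a second probe gave 0.11. Ndufa11, a membrane-arm subunit, differed by 0.40 ± 0.10 with adjusted p = 0.0493, close to the threshold. Ndufa5 passed in 10 of 19 alternative settings and Ndufa11 in 9. In the core, Ndufs8, which holds iron-sulphur clusters, rose, with levels of 1.20, 1.15 and 1.15 in DDC injury and 0.73, 0.64 and 0.77 in no injury (difference 0.47 ± 0.10, adjusted p = 0.0270), but was not called in the authors' values (0.35, adjusted p = 0.0690). The 6 other core subunits did not pass, and their differences lay between -0.06 and 0.36.

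Ndufa6, an accessory subunit of the LYR family, moved the other way. Its levels were 3.29, 3.47 and 3.32 in DDC injury and 3.80, 3.74 and 3.78 in no injury. Every DDC injury array was lower, by -0.41 ± 0.11, with adjusted p = 0.0499, the value nearest the threshold of all calls, and it passed in 8 of 19 alternative settings. Of the 28 subunits that did not pass, the differences ran from -0.17 for Ndufb2 to 0.51 for Ndufa10, which were picked out after their values were seen. Ndufc1 was not tested, since its spots were marked as outliers on 2 DDC injury arrays, and Ndufv2 was fitted without DDC injury replicate 3 for the same reason.

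Assembly factors of complex I, which build or modify the enzyme without being part of it, included 3 rises among 8 tested, 0 falls and a median of 0.04 (-0.11 when all probes of a gene were averaged). Ndufaf5, known in human cells to hydroxylate an arginine of a core subunit, had levels of -2.68, -2.78 and -2.75 in DDC injury and -3.42, -3.47 and -3.47 in no injury, with no overlap and a difference of 0.72 ± 0.09 (adjusted p = 0.00924, limma). A dimmer probe of Ndufaf5 gave -0.65 (adjusted p over probes 0.109), so its probes disagreed. Ndufaf6 had levels of 0.29, -0.02 and 0.14 in DDC injury and -0.64, -0.58 and -0.56 in no injury, a difference of 0.73 ± 0.13 (adjusted p = 0.0195). The chaperone Ndufaf2 rose by 0.62 ± 0.13 (adjusted p = 0.0266). Ndufaf8 had the lowest difference of the group, -1.22 ± 0.45, and did not pass (adjusted p = 0.111). Its levels were -2.14, -0.98 and -0.95 in DDC injury and 0.12, -0.38 and 0.10 in no injury, so that the groups stood apart while the DDC injury arrays differed among themselves by more than 1.

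**Figure D3:**
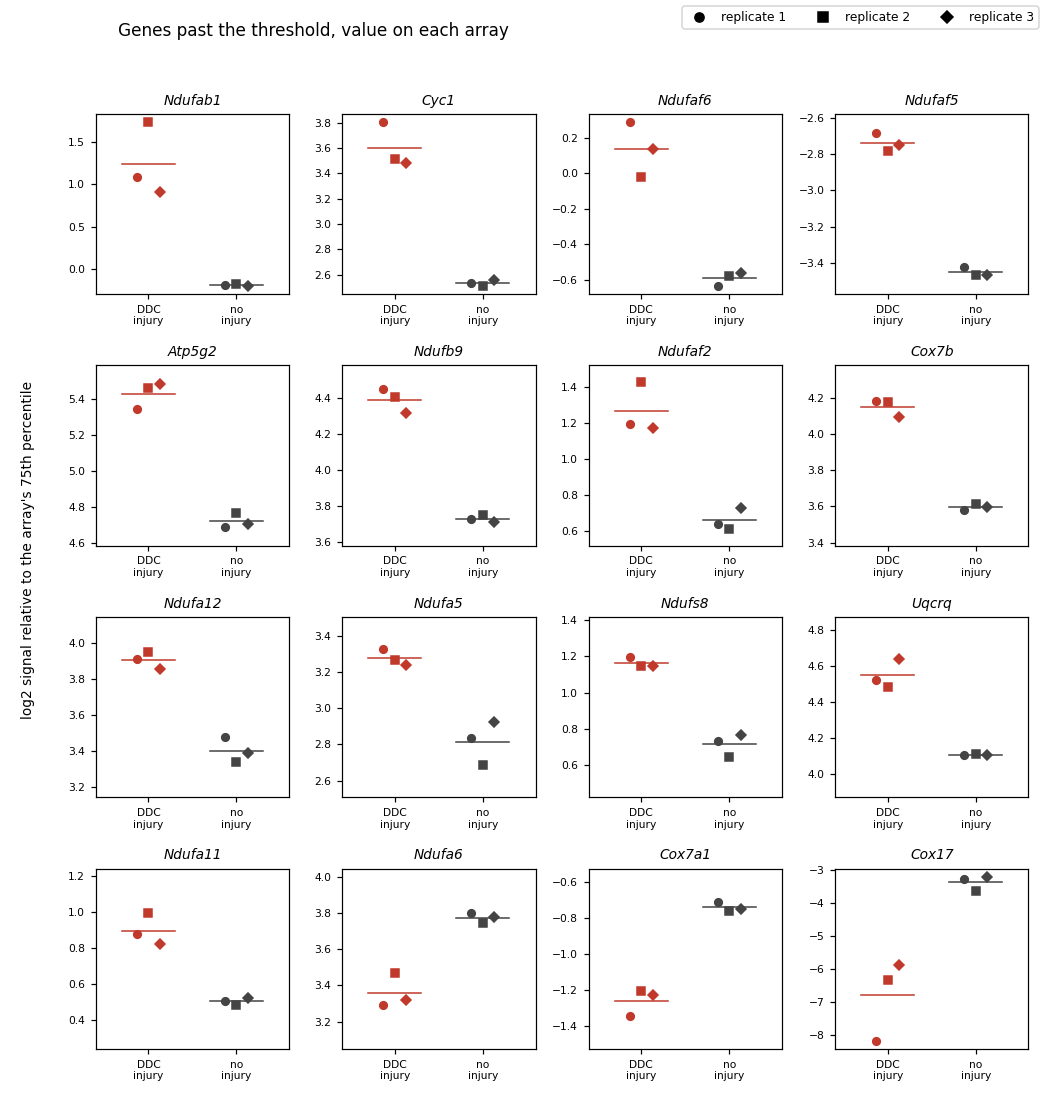
Level of each member past the threshold on every array, as log2 relative to the array's 75th percentile, with DDC injury left of no injury, shapes for replicates, a line at the mean of the 3 arrays and a separate y axis for each panel. In each panel all DDC injury arrays lie on one side of the no-injury arrays, by a wide margin for Cyc1 and with wide scatter for Ndufab1 and Cox17.

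Complex II, succinate dehydrogenase, which belongs to both the citric acid cycle and the chain, gave no call among its 4 subunits. The flavoprotein Sdha differed by 0.14 ± 0.10, the iron-sulphur subunit Sdhb by 0.00 ± 0.15, and the membrane anchors Sdhc and Sdhd by -0.18 ± 0.12 and 0.28 ± 0.18, and 0 of the 4 had an unadjusted p under 0.05 in limma. Their median was 0.07 here and -0.26 in the authors' values, so the direction of this small group depended on the scaling. Levels of Sdhb were 3.49, 3.39 and 3.13 in DDC injury and 3.27, 3.38 and 3.33 in no injury, and the no-injury arrays lay within the DDC injury range. For the other subunits the groups did not overlap with this scaling, with every DDC injury array above for Sdha and Sdhd and below for Sdhc, by narrow margins. In the authors' values every DDC injury array was below for Sdha as well as for Sdhc, and the groups overlapped for Sdhd. The differences there were -0.17 for Sdha, -0.35 for Sdhc and -0.07 for Sdhd.

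Complex III, the cytochrome bc1 complex, had a median of 0.33, or 0.15 when all probes of a gene were averaged, with 2 of 9 genes higher and 0 lower. Cyc1, the cytochrome c1 that hands electrons to cytochrome c, had levels of 3.81, 3.51 and 3.48 in DDC injury and 2.54, 2.51 and 2.56 in no injury. The lowest DDC injury array lay well above the highest no-injury array, and the difference was 1.07 ± 0.14, a 2.10-fold rise (adjusted p = 0.00955, limma). It was past the threshold in 17 of 19 alternative settings. Uqcrq, a small subunit beside cytochrome b, rose by 0.44 ± 0.10 (adjusted p = 0.0355), but it differed by 0.24 without a call in the authors' values, a second, dimmer probe gave -0.57, and it passed in 9 of 19 settings. Uqcrfs1, the Rieske iron-sulphur protein, had the lowest difference, -0.16 ± 0.12. Uqcr10, Uqcrb and Uqcrc1, chosen after their values were seen, stood just outside the threshold, with adjusted p = 0.0520, 0.0581 and 0.0620 and differences of 0.41, 0.46 and 0.33. In the authors' values they differed by 0.17, 0.24 and 0.37, none past the threshold. A dimmer Uqcrb probe gave -0.14 and another 0.56.

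Cytochrome c itself, Cycs, carries electrons between complexes III and IV and takes part in apoptosis. Its levels were 4.46, 4.82 and 4.53 in DDC injury and 4.10, 4.04 and 4.04 in no injury. The groups did not overlap, but the difference of 0.55 ± 0.15 missed the threshold at adjusted p = 0.0519. Of its other probes, one gave -0.15 and a much dimmer one -1.35.

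Complex IV, cytochrome c oxidase, had 1 of 15 tested subunits higher, 1 lower and a median of 0.14, which was -0.03 in the authors' values. The common subunit Cox7b rose, with levels of 4.18, 4.18 and 4.10 in DDC injury and 3.58, 3.62 and 3.60 in no injury, no overlap and a difference of 0.55 ± 0.09 (adjusted p = 0.0170, limma). Among the 9 tested subunits of the common form the median was 0.23 (-0.01 after quantile normalization) and the range -0.28 to 0.55. Cox7c, another common subunit, was not tested because its brightest probe was marked as an outlier on 2 DDC injury arrays. A second Cox7c probe differed by 0.48 (adjusted p over probes 0.0309) and another, dim one by -0.50.

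Tissue forms of complex IV mostly did not pass the test. Cox7a1, the form of heart and skeletal muscle, was the exception, with levels of -1.34, -1.21 and -1.23 in DDC injury and -0.71, -0.76 and -0.75 in no injury. All DDC injury arrays were lower, the difference was -0.51 ± 0.10, a 1.43-fold fall (adjusted p = 0.0236, limma), and it held in 15 of 19 settings. Its common partner Cox7a2 differed by 0.23 ± 0.16 and Cox7a2l, a related protein that links complexes III and IV, by 0.27 ± 0.11 in a fit without no-injury replicate 1, neither past the threshold. In the authors' values Cox7a2 differed by 0.03 and Cox7a2l by -0.13. The difference between partners was not tested. Of 8 striated muscle markers, 2 were well above background on all 6 arrays. The sum over all 8 was 1.78 to 2.87 in DDC injury and 0.654 to 0.687 in no injury. That sum followed Tnnt2, which rose by 1.89, while Acta1 fell, and Myl1 was well above background on 3 no-injury arrays and 0 DDC injury arrays. Their part in the fall of Cox7a1 was not tested.

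The other tissue forms had dim and scattered signals. Cox4i2, the lung form, which is known to respond to low oxygen, had levels of -2.12, -1.25 and -1.19 in DDC injury and -1.15, -0.24 and -0.82 in no injury. The DDC injury arrays were all lower, by a narrow margin, and the difference of -0.90 ± 0.41 did not pass (adjusted p = 0.164), beside 0.14 ± 0.10 for the common Cox4i1. In the authors' values Cox4i2 differed by -0.75 and Cox4i1 by -0.30, so both were lower there. The muscle form Cox6a2 differed by 0.04 ± 0.81 and the common Cox6a1 by 0.18 ± 0.16. The testis form Cox6b2 differed by -0.09 ± 0.49 and the common Cox6b1 by -0.28 ± 0.16. Testis markers summed to 0.027 to 0.0777 in DDC injury and 0.12 to 0.128 in no injury, with 1 of 6 well above background on all arrays. The muscle form Cox8b was well above background on 1 of 3 DDC injury arrays and 3 of 3 no-injury arrays (-1.55 ± 1.04), and the common Cox8a differed by 0.33 ± 0.14. Cox7b2 was well above background on 1 no-injury array and Cox8c on 0 arrays, and neither was tested. Ndufa4, a protein of complex IV first assigned to complex I, differed by 0.11 ± 0.16, and its hypoxia-responsive paralogue Ndufa4l2 by -0.47 ± 0.67. None of the forms named in this paragraph passed the threshold in limma.

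**Figure D4:**
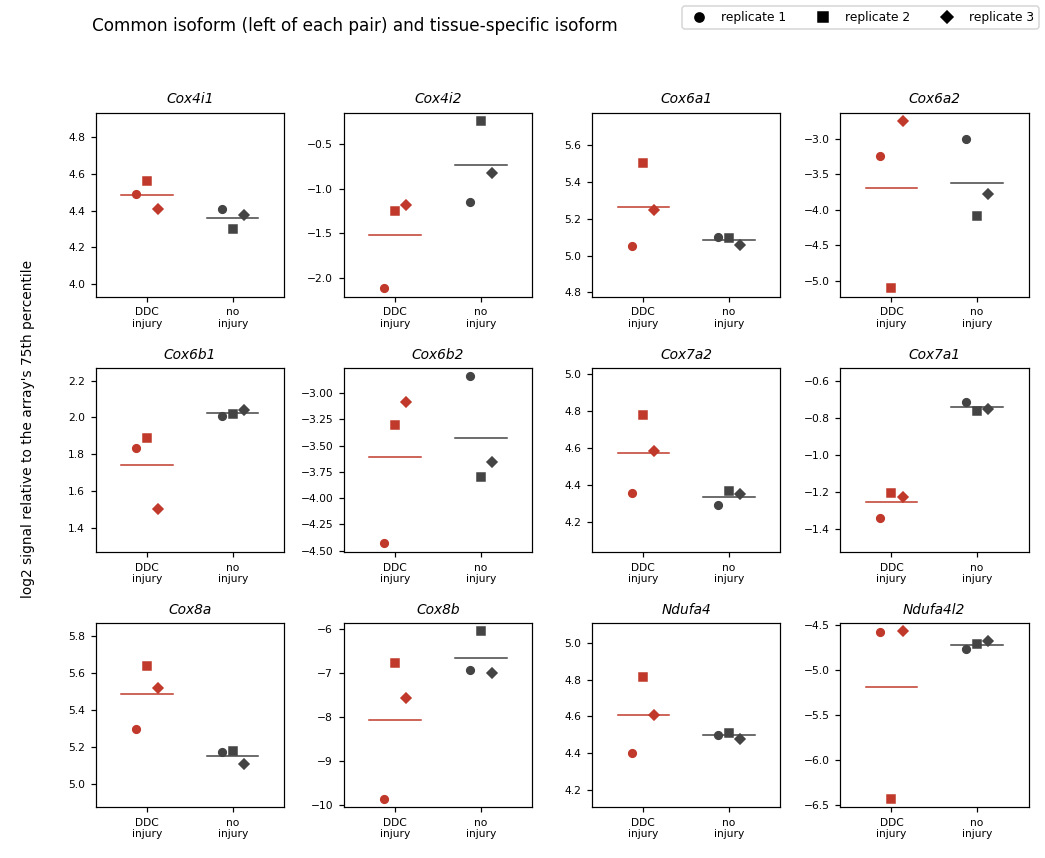
Level of tissue forms and of their common partners on every array, as log2 relative to the array's 75th percentile, with DDC injury left of no injury, shapes for replicates, a line at the mean of the 3 arrays and a separate y axis for each panel, so levels cannot be compared between panels. Cox7a1 is lower on every DDC injury array, and the arrays of Cox6a2, Cox6b2 and Cox8b overlap.

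Assembly factors of complex IV within the set gave 1 fall among 4. Cox17, the copper chaperone of the enzyme, had levels of -8.17, -6.31 and -5.86 in DDC injury and -3.25, -3.62 and -3.19 in no injury. The groups stood far apart, at a difference of -3.36 ± 0.77 (adjusted p = 0.0354, limma). The probe was, however, well above background on only 2 of 3 DDC injury arrays. A second, dimmer Cox17 probe was well above background on only 2 arrays and was not fitted. It had levels of -8.64, -8.41 and -7.67 in DDC injury and -7.29, -8.17 and -7.64 in no injury, so the groups overlapped. The difference on the first probe moved with the processing. It was -1.56 in the authors' values and, without a call, -1.01 under normexp with 75th-percentile scaling (adjusted p 0.00439 to 0.181 over its 18 settings). Cox10 and Cox15, which make the haem A of complex IV, differed by 0.61 ± 0.23 and -0.17 ± 0.15, and Cox11, which serves copper insertion, by 0.07 ± 0.14. These last 3 did not pass.

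ATP synthase had 1 of 17 genes higher, 0 lower and a median of 0.11, which was -0.11 after quantile normalization. The rise was in Atp5g2, one of 3 genes that encode the same mature c subunit of the proton-turned ring. Its levels were 5.34, 5.46 and 5.48 in DDC injury and 4.69, 4.77 and 4.71 in no injury, with no overlap and a difference of 0.69 ± 0.10, a 1.62-fold rise (adjusted p = 0.0119, limma). In the authors' values Atp5g2 differed by 0.41 and was not called, and it passed in 14 of 19 settings. The other c-ring genes, Atp5g1 and Atp5g3, had differences of 0.39 and 0.34 without passing, and the c-ring median of 0.39 stood beside 0.24 for the 5 genes of the F1 head and central stalk, -0.05 for the 4 of the peripheral stalk and 0.08 for the 5 membrane accessory subunits. In the authors' values these medians were 0.15, 0.05, -0.02 and -0.19, and that of the peripheral stalk was above 0 under normexp with 75th-percentile scaling. In the peripheral stalk Atp5o had the lowest difference of the complex, -0.34 ± 0.22, and Atp5h was fitted without DDC injury replicate 1. The 5 probes of Atp5l ranged from -0.91 to 0.08.

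Promoters of these genes are known to bind NRF1, ETS factors of the GABP type and YY1, and their letters were looked for in the 250 bases before the start, on both strands, in the RefSeq promoter table of build GRCm38.p6, where 80 of the 99 genes matched with 85 promoters. The NRF1 core TGCGCA was present in 18.8% of them and in 6.43% of all 32851 promoters, the ETS letters CCGGAAG in 17.6% and 6.91%, and the YY1 letters AAGATGG in 1.18% and 4.49%. The ETS letters end in the AAG with which the YY1 letters begin, so both can share bases. A match describes letters only. Of the 10 promoters of members that rose, which belong to 9 genes, 3 held the NRF1 core and 0 the ETS letters. The 3 belong to 2 genes. Among promoters of members not called, 16.4% held the NRF1 core and 20.5% the ETS letters. Those of Ndufab1 and Atp5g2 are shown because these genes had the greatest rise in complex I and in ATP synthase, and that of Cox7a1 because it is the tissue form that fell. Capitals mark the NRF1 core, which lies at bases 37 to 32 before the start of Atp5g2, and the other two hold none of the 3 motifs. The windows are chr7:122101849-122102098 on the minus strand for Ndufab1, chr15:102671048-102671297 on the minus strand for Atp5g2 and chr7:30183921-30184170 on the plus strand for Cox7a1, each printed 5′ to 3′ toward the gene.
Ndufab1: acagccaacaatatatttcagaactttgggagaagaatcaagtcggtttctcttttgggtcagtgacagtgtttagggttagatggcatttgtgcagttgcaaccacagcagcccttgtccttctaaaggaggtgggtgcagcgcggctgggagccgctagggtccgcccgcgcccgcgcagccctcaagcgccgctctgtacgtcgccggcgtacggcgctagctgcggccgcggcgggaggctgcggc
Atp5g2: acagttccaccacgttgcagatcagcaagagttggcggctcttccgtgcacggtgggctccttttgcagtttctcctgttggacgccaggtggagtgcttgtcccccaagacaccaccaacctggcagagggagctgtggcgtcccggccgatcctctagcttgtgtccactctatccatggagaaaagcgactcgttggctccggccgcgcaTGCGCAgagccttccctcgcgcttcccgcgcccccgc
Cox7a1: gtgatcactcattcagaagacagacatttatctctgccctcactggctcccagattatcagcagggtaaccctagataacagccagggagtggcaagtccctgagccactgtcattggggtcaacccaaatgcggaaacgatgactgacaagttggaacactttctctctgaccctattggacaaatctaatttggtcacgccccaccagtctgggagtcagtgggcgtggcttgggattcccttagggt

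Genes that serve the chain from outside the set were described from 7 lists with genes on the array. Of 202 tested genes, 56 rose and 11 fell, beside 17.7% and 15.8% of all genes. The mitochondrial ribosomal proteins, which translate the subunits encoded in mitochondrial DNA, had 29 of 76 higher and 1 lower, with a median of 0.38, and the protein import machinery had 10 of 22 higher, 2 lower and a median of 0.43. Over the scalings these medians lay at 0.30 to 0.41 and at 0.30 to 0.43. Mrps28, of the small ribosomal subunit, had levels of 2.22, 2.24 and 2.05 in DDC injury and 0.71, 0.64 and 0.69 in no injury (difference 1.50 ± 0.11, adjusted p = 0.00269, limma). Mrpl13, Mrpl57 and Mrpl28, of the large subunit, rose by 1.30, 1.00 and 1.02. In import, Timm8a1, a chaperone of the intermembrane space, rose by 1.40 ± 0.11 (adjusted p = 0.00274), Timm17b and Timm50 of the inner membrane translocase rose by 1.28 and 0.87, and Timm29 fell by 0.82.

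Assembly factors outside the symbol rule had 6 of 36 higher, 3 lower and a median of 0.10. Cox14, which acts early in complex IV assembly, rose by 1.47 ± 0.11 (adjusted p = 0.00277, limma), with levels of 3.72, 3.73 and 3.60 in DDC injury and 2.26, 2.13 and 2.32 in no injury. Sco2, a copper chaperone, Tmem70, a factor for ATP synthase, and Coa3 rose by 0.82, 0.91 and 0.62. Coenzyme Q synthesis had 1 of 13 higher, 1 lower and a median of -0.20, where Pdss1, which makes the side chain, rose by 1.23 and Coq10a fell by 0.44. The citric acid cycle and pyruvate dehydrogenase list had 5 of 22 higher, 2 lower and a median of 0.06, which was -0.01 in the authors' values. Citrate synthase Cs rose by 0.64, while Dlat, a core of pyruvate dehydrogenase, fell by 0.77. Pdk2, the kinase that inhibits pyruvate dehydrogenase, fell by 2.29 ± 0.10 (adjusted p = 0.00102), with levels of -2.93, -2.79 and -2.86 in DDC injury and -0.51, -0.60 and -0.56 in no injury.

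Regulators of mitochondrial biogenesis did not move one way, with 3 of 20 higher, 2 lower and a median of -0.06, which was 0.02 in the authors' values. Nrf1, a transcription factor of respiratory chain genes, rose by 0.56 ± 0.11 (adjusted p = 0.0216, limma), and Gabpb1, the partner subunit of the ETS factor GABP, rose by 0.98 ± 0.12 (adjusted p = 0.00826). The coactivator Ppargc1a fell, with levels of -2.02, -1.79 and -2.46 in DDC injury and -0.48, -0.37 and -0.60 in no injury (difference -1.64 ± 0.24, adjusted p = 0.0114). Its relative Ppargc1b was well above background on no DDC injury array and was at least 2.57-fold lower there (adjusted p = 0.00272), having passed the filter through the no-injury arrays alone. For this bound the no-injury mean is set against a floor on each DDC injury array, the dimmest signal of any well-measured probe or the probe's own signal, whichever is higher. In the list of other electron entry and exchange proteins, Vdac1, the outer membrane channel, and Etfa, of the flavoprotein that brings in electrons from fatty acid oxidation, rose by 0.73 and 0.36 among 13 tested, with 0 falls and a median of -0.18.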

How the data were processed

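Gene expression was measured on 6 Agilent arrays of 1 colour, design 026655. Per the file headers, Feature Extraction 11.0.1.1 made the processed signal, an intensity in which background is already subtracted. The authors deposited a value table of log2 values (column medians 6.921 to 6.927); its starting column and centring are not stated, and the submitters' processing notes name limma without a version. Gene names come from RefSeq (GRCm38.p6) by transcript accession, which matched 27234 of 39429 probes; the headers name mm9, so the arrays' coordinates are not used.

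Outlier-flagged spots were left out and spots of a probe averaged. A gene took the probe with the highest mean and was tested if 3 arrays or more showed it well above background, with 2 values per group. The test was limma 3.58.1 in R 4.3.3 (lmFit, eBayes, two-sided, prior degrees of freedom 1.35). P-values measure the spread between these samples, which may be technical, and the number of arrays limits the precision. Normexp (offset 50) used the median signals, since the mean signal was not in the files. The fit was tested on simulated data with the same spread in both groups, so the unequal spread of these groups was not covered. Alternatives covered scaling, background, filter, probes, weights, samples, scans and replicates.

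The members and lists were chosen with earlier results of these data known. Named are members past the threshold, the largest difference each way per complex, the isoforms and their partners, complex II, Cyc1, Cycs and the complex IV factors, and up to 4 called genes per list by adjusted p; others are said to be picked afterwards. A gene this rule takes is not reported here.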

Additional observations from a re-analysis of the deposited data

How the results depend on the processing

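The members' counts moved with several settings, and so did those of all genes. All genes gave 2146 higher and 1852 lower of 20552 tested with no filter on dim probes. They gave 4396 and 4173 of 15619 with array weights, and 3849 and 3625 of 15627 with all 6 arrays separate. With no filter on dim probes 7 members rose and 0 fell (22 and 4 at an unadjusted p under 0.05, limma), with array weights 31 and 6, and with all 6 arrays separate 25 and 5. Averaging all no-injury arrays left 0 and 0 past the threshold (7 and 1 unadjusted). Leaving out 1 array gave 0 to 20 higher and 0 to 3 lower. The authors' values gave 10 and 5, and normexp plus quantile normalization 13 and 6. The other pathway genes gave 28 and 6 without a filter, 89 and 35 with weights, 86 and 24 with 6 arrays, 0 and 2 with no-injury averaged, and 0 to 67 higher and 1 to 23 lower when 1 array was left out. The isoform list had 0 higher after quantile normalization, 3 and 2 with weights, 0 and 0 with no-injury averaged, 0 lower with no filter, and 0 to 1 higher and 0 to 1 lower when 1 array was left out.

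The members' median was -0.0075 after quantile normalization, 0.0175 in the authors' values and -0.0081 when normexp came before it. Less the median of all genes, an alternative chosen after seeing the data, it was 0.209 with the 75th percentile, -0.0112, 0.0379 and -0.0218 in these settings and 0.065 with normexp and the 75th percentile. Under quantile normalization, the authors' values, normexp with the 75th percentile and normexp with quantiles, in this order, complex II gave -0.0822, -0.256, -0.11 and -0.262, and complex IV -0.0139, -0.0342, 0.043 and -0.0653. Complex I subunits gave 0.0297, 0.038 and 0.0138 under the first, second and last, and its assembly factors 0.228 and 0.233 with normexp. Complex III gave 0.17 in the authors' values, 0.122 with normexp and quantiles and 0.149 over all probes, and complex V -0.108 after quantile normalization. Complex IV further gave 0.108 over all probes, 0.229 with weights, 0.212 with scan day as covariate, and 0.096 to 0.212 when 1 array was left out. Uqcrq turned to -0.0637 over all probes, adjusted p 0.744 (0.0039 to 0.744 over its settings). The cause of these moves was not tested.

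Deviations from the group means correlated at 0.117, 0.018 and 0.122 between same-numbered arrays and at -0.145 to 0.019 between the others. With 3 arrays per group these values cannot show whether same-numbered arrays were paired. A replicate block with all 6 arrays gave 14 higher and 3 lower members, and 2 lower isoforms. Each of the 3 scans held 1 group, so a difference between groups cannot be told apart from one between scans. The settings for scan do not separate them. With scan as a random block 10 rose and 2 fell, and among the arrays of the second scan day (all but DDC injury replicate 1) 15 rose and 3 fell. Signals near background limited Cox17 and Cox8b.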
